A study of Mus musculus with 9 samples.

Results

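The genes described here carry choline into cells and build it into phosphatidylcholine, with their counterparts for ethanolamine. The 10 genes were taken by symbol from a gene table of 21352 rows: the transporters Slc44a1 and Slc44a2, the kinases Chka, Chkb and Etnk1, the cytidylyl transferases Pcyt1a and Pcyt2, the final transferases Chpt1 and Cept1, and the methyltransferase Pemt. The RNA came from HT-22, an immortalized line of mouse hippocampal origin, in 3 groups of 3 libraries. Betaine plus HTL cells received 10 mM betaine for 4 hours and then 2 mM homocysteine thiolactone (HTL) for 24 hours. HTL cells received 2 mM HTL for 24 hours without betaine, and control cells carry the label WT. All groups were grown in the same serum-containing medium; the sources used here do not give what control cells received in place of HTL. Betaine without HTL was not analysed here. As background, HTL is a reactive cyclic thioester of homocysteine. Betaine, which mammals make by oxidising choline, donates methyl groups and acts as an osmolyte.

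Phosphatidylcholine is the main phospholipid of most mammalian membranes. In the CDP-choline (Kennedy) pathway, imported choline is phosphorylated, activated with CTP to CDP-choline, and joined to diacylglycerol. The CTP step, catalysed by the products of Pcyt1a and Pcyt1b, is usually the slowest, and the ethanolamine branch runs in parallel through Etnk1, Pcyt2 and Cept1 or Selenoi to phosphatidylethanolamine. Pemt, known best from liver, converts phosphatidylethanolamine to phosphatidylcholine with methyl groups from S-adenosylmethionine.

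Values are FPKM, fragments scaled by gene length and by library total, so that levels of different genes can be set side by side per length. The libraries had been scaled to totals of about 33300000 to 39500000 fragments, inferred from the steps between low values, and 16441 to 17256 genes lay above 0. The 11012 genes that averaged 0.5 FPKM or more were compared on log2(FPKM + 1) with limma, and a change was called at an adjusted p under 0.05 over all of them. The label names the cells as neuronal, but of 7 neuronal markers 5 were listed and only Tubb3 had a mean of at least 0.5 FPKM (9.52 FPKM), with Rbfox3 and Mapt at no more than 0.0021 and 0.016 FPKM in a library. Summed astrocyte markers, nearly all of it Gja1, stood at 139 to 142 FPKM in betaine plus HTL libraries, 120.0 to 122 FPKM in HTL libraries and 111 to 114 FPKM in control libraries. Fibroblast markers, mostly Vim and Col1a1, summed to 864 to 890.0, 902 to 924 and 1235 to 1269 FPKM in the same groups, with 3 of 6 (Vim, Col1a1 and Pdgfrb, the last at a mean of 7.63 FPKM) at 0.5 FPKM or more. Microglial markers, mostly Tmem119, summed to 5.38 to 6.32, 8.17 to 8.82 and 7.95 to 9.20 FPKM. Oligodendrocyte markers summed to 7.57 to 7.76, 5.53 to 5.98 and 6.85 to 7.11 FPKM, and endothelial ones to 2.11 to 2.51, 2.78 to 2.84 and 3.15 to 3.33 FPKM, in both lists with 1 marker at 0.5 FPKM or more. Gfap, Lum and Col1a2 reached at most 0.028, 0.013 and 0.199 FPKM. The part of these shifts in the results below was not tested.

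**Figure D1:**
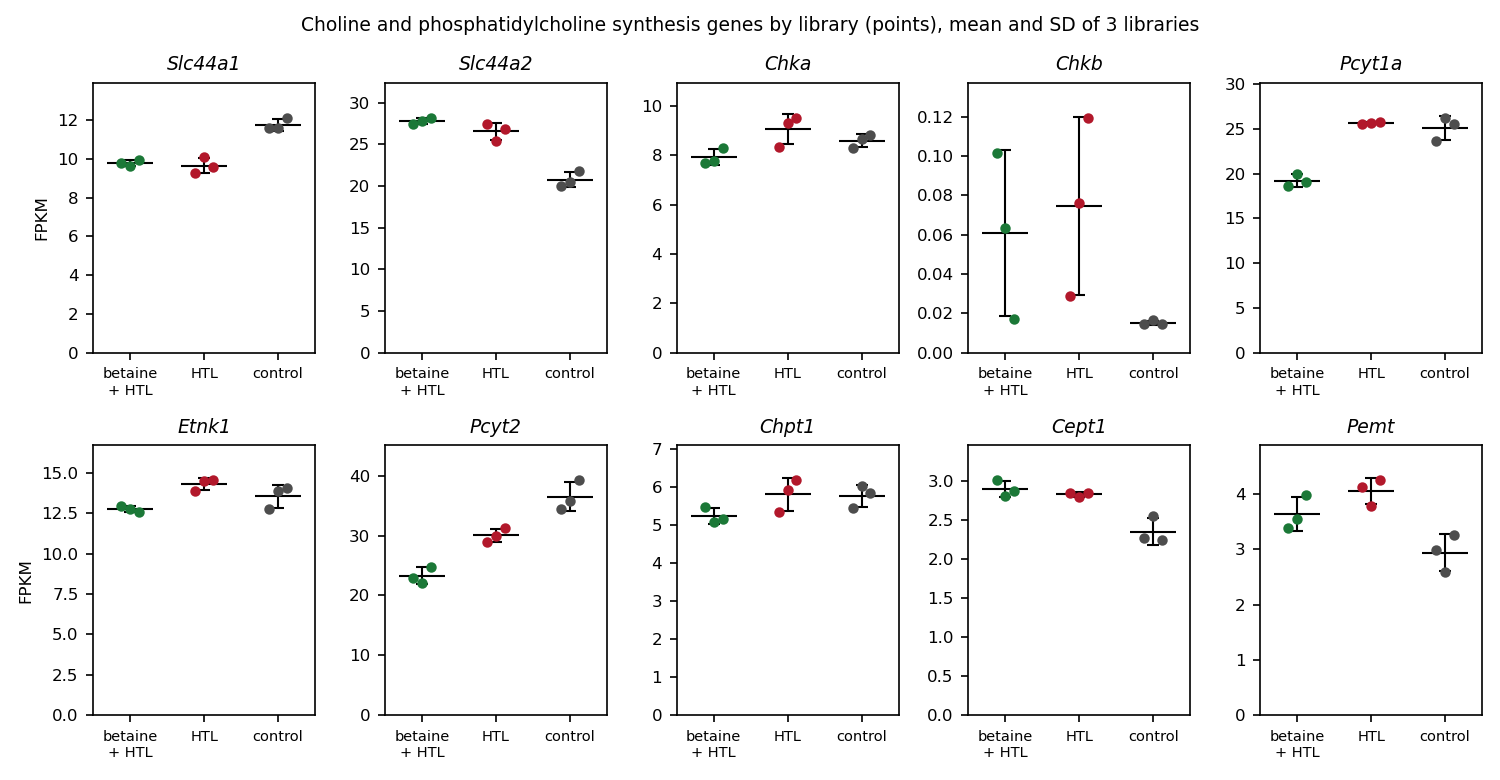
FPKM of the 10 genes (vertical axes, each from 0) in betaine plus HTL, HTL and control libraries, with 1 point per library and a bar and whisker for the mean and SD of 3. Pcyt2 is lowest with betaine plus HTL, higher with HTL and highest in control libraries, Slc44a1 and Slc44a2 separate control from both treated groups in opposite directions, and Chkb stays at or under 0.12 FPKM.

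Of the 10 genes, 9 passed the filter. Pcyt2, which makes CDP-ethanolamine, had the highest mean of them in HTL cells (30.02 ± 1.1 FPKM, SD, n = 3) and in control cells (36.5 ± 2.4 FPKM), followed in control cells by Pcyt1a at 25.1 ± 1.3 and Slc44a2 at 20.8 ± 0.94 FPKM. In betaine plus HTL cells the order of these 3 was another: Slc44a2 came first at 27.8 ± 0.37 FPKM, ahead of Pcyt2 at 23.3 ± 1.4 and Pcyt1a at 19.2 ± 0.70 FPKM, with no overlap between neighbours. In HTL cells Slc44a2 and Pcyt1a overlapped. Below them came, in every group, Etnk1, Slc44a1, Chka, Chpt1, Pemt and Cept1, where only Slc44a1 and Chka overlapped, and only in HTL cells. Cept1 had the lowest mean of the 9, with 2.90 ± 0.099 FPKM in betaine plus HTL cells and 2.35 ± 0.17 FPKM in control cells. The FPKM values correspond to 976 to 5244 fragments per library and gene, except for Pemt with 118 to 214, so counting error weighs most on Pemt.

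In GRCm38 by RefSeq, the transporter genes lie on chromosome 4 (Slc44a1, 53440387 to 53622478, plus strand) and chromosome 9 (Slc44a2, 21320719 to 21355028, plus). Chka lies on chromosome 19 (3851585 to 3894369, plus), Etnk1 on chromosome 6 (143166866 to 143208546, plus) and Pcyt1a on chromosome 16 (32430921 to 32475065, plus). Pcyt2 (120610062 to 120617947) and Pemt (59970614 to 60046561) share the minus strand of chromosome 11. Chpt1 is on chromosome 10 (88469513 to 88503970, minus) and Cept1 on chromosome 3 (106502260 to 106547802, minus). Cept1 overlaps Dram2, which reached 5.52 FPKM, so fragments of these genes may not be fully separated. FPKM here covers the whole gene row and tells no exon or isoform apart.

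Chkb, the second choline kinase gene, was almost without counted fragments. It had 7, 4 and 1 fragments in the betaine plus HTL libraries, 2, 5 and 8 in the HTL libraries and 1 in each control library, and was not tested. The control level is at or under the 3 fragments that a count of 0 allows, so no fold change is given. In the RefSeq annotation of GRCm38 (chromosome 15, 89426349 to 89429927) it is overlapped by the noncoding genes Gm44502 and C730034F03Rik, which reached at most 0.093 and 0.054 FPKM. How fragments on overlapping genes were counted is not given in the sources used here, so the level of Chkb is uncertain.

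HTL against control compares HTL cells with control cells, whose treatment in place of HTL is not given. The transporter genes moved in opposite directions: Slc44a2 rose and Slc44a1 fell. The gene of the ethanolamine cytidylyl transferase, Pcyt2, fell, while that of the choline cytidylyl transferase, Pcyt1a, was not called. Cept1 and Pemt rose. Of the 9 tested genes 3 rose and 2 fell, where over all 11012 genes tested 39.8% rose and 20.4% fell (60.3% called), so the share of calls is near the background. The libraries of HTL and control cells did not overlap for 5 of the 9, against 67.2% of all genes. The median log2 fold change was 0.07 over the 9 and 0.07 over all genes. Fewer cells of a kind and less RNA per cell cannot be told apart in such bulk samples.

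Slc44a1 encodes the choline transporter-like protein found in most tissues. Its libraries stood at 9.28, 10.1 and 9.59 FPKM in HTL cells, against 11.6, 11.6 and 12.1 FPKM in control cells. Every HTL library was below every control library, with a log2 fold change of -0.26 ± 0.04 (SE, limma adjusted p = 0.000142). Slc44a2, a related transporter that has also been placed in mitochondria, stood at 27.4, 25.3 and 26.9 FPKM in HTL cells, against 20.001, 20.5 and 21.8 FPKM in control cells. Here every HTL library was above every control library (log2 fold change 0.34 ± 0.04 SE, limma adjusted p = 2.09e-05). The Slc44a1 to Slc44a2 ratio within a library, which does not depend on scaling between libraries, was 0.364 ± 0.030 in HTL cells and 0.566 ± 0.012 in control cells (SD, n = 3 each). That difference of -0.64 in log2 ratio had an exact two-sided permutation p of 0.1, the smallest that 3 against 3 libraries allow, with no overlap.

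Among the kinase genes, Chka, whose product phosphorylates choline, stood at 8.36, 9.33 and 9.51 FPKM in HTL libraries and 8.32, 8.65 and 8.82 FPKM in control libraries. These ranges overlap, and the log2 fold change of 0.07 (95% interval -0.04 to 0.18) did not pass (limma adjusted p = 0.26). It passed without HTL replicate 1, the lowest of its group, at an adjusted p of 0.0464, with 0.0464 to 0.845 over all settings. Etnk1, the ethanolamine kinase gene, averaged 14.3 ± 0.38 FPKM in HTL cells and 13.5 ± 0.71 FPKM in control cells (SD, n = 3 each). Its log2 fold change of 0.07 also missed the threshold (interval -0.01 to 0.16, limma adjusted p = 0.129).

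At the CTP step, Pcyt1a was not called, with 25.6, 25.7 and 25.7 FPKM in HTL libraries and 23.6, 26.2 and 25.6 FPKM in control libraries. The HTL values lie inside the control range, and the 95% interval of the log2 fold change ran from -0.06 to 0.12 (limma adjusted p = 0.533). Pcyt1b, the other choline cytidylyl transferase gene, fell and is described further below. Pcyt2 stood at 29.0, 29.9 and 31.2 FPKM in HTL libraries, against 34.5, 35.8 and 39.2 FPKM in control libraries. The groups did not overlap, and Pcyt2 fell by 17.7% in its mean (log2 fold change -0.27 ± 0.05 SE, limma adjusted p = 0.000928). The Pcyt1a to Pcyt2 ratio was 0.856 ± 0.029 in HTL cells and 0.69 ± 0.040 in control cells (SD, n = 3 each), with no overlap and an exact permutation p of 0.1, again the smallest possible.

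In the last step, Cept1, whose product accepts both CDP-choline and CDP-ethanolamine, stood at 2.85, 2.79 and 2.84 FPKM in HTL libraries, against 2.26, 2.55 and 2.24 FPKM in control libraries. All HTL values were higher (log2 fold change 0.19 ± 0.05 SE, limma adjusted p = 0.00633), but quantile normalization ended the call (adjusted p = 0.122, with 0.0025 to 0.122 over all settings). Chpt1, the choline-specific transferase gene, averaged 5.81 ± 0.43 FPKM in HTL cells and 5.77 ± 0.29 FPKM in control cells, which overlapped (SD, n = 3 each; interval of the log2 fold change -0.11 to 0.13). Pemt stood at 4.12, 3.79 and 4.25 FPKM in HTL libraries, against 2.98, 2.58 and 3.25 FPKM in control libraries. The groups were apart, and among the 9 genes Pemt had the largest fitted log2 fold change, 0.36 ± 0.07 (SE, limma adjusted p = 0.00109).

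**Figure D2:**
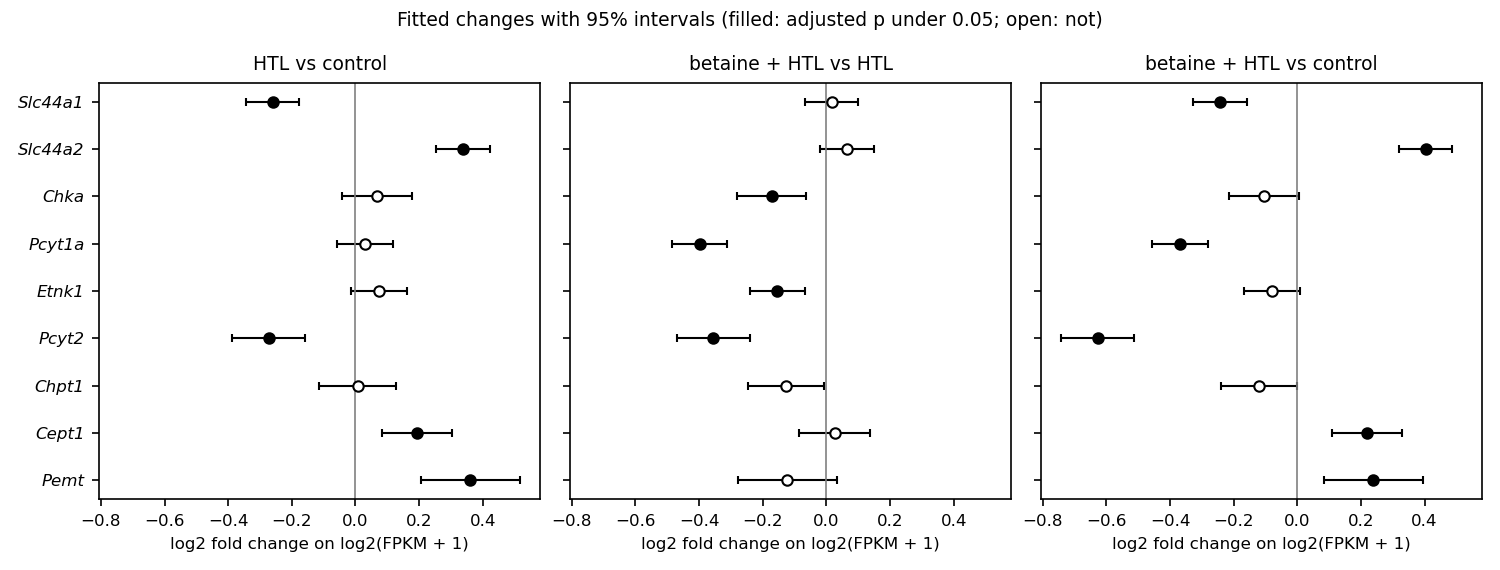
Fitted log2 fold change on log2(FPKM + 1) (horizontal axis) with its 95% interval for the 9 tested genes in 3 comparisons; filled points passed an adjusted p of 0.05. HTL against control holds 3 rises and 2 falls, betaine plus HTL against HTL 4 falls and no rise, and betaine plus HTL against control 3 of each.

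Differences with the pretreatment under HTL were read from betaine plus HTL against HTL. The genes called encode enzymes of the kinase and CTP steps of both Kennedy branches. Pcyt1a and Pcyt2 fell, and so did the kinase genes Chka and Etnk1, by less. The call of Chka was lost in some settings. None of the 9 tested genes was called higher, and neither transporter gene was called. The 4 falls among 9 tested genes (44.4% called) stand beside 20.6% of genes that fell and 14.5% that rose among all 11012 (35.2% called). The median log2 fold change was -0.13 over the 9 and -0.02 over all genes, and the groups were fully apart for 4 of 9, against 47.7% of all genes.

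Pcyt1a stood at 18.6, 19.997 and 19.1 FPKM in the betaine plus HTL libraries, against 25.6, 25.7 and 25.7 FPKM in the HTL libraries. The groups were far apart relative to their spread, and Pcyt1a fell by 25.1% in its mean (log2 fold change -0.40 ± 0.04 SE, limma adjusted p = 2.85e-05). Pcyt2 stood at 22.9, 22.02 and 24.8 FPKM with betaine, below the 29.0 to 31.2 FPKM of the HTL libraries (log2 fold change -0.36 ± 0.05 SE, limma adjusted p = 0.000421). As both genes were lower, their ratio within a library, 0.83 ± 0.071 in betaine plus HTL cells and 0.856 ± 0.029 in HTL cells, overlapped between the groups (SD, n = 3 each; exact permutation p = 0.6).

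Chka stood at 7.71, 7.77 and 8.29 FPKM in betaine plus HTL libraries, against 8.36, 9.33 and 9.51 FPKM in HTL libraries. The groups did not overlap, although the nearest libraries were close (log2 fold change -0.17 ± 0.05 SE, limma adjusted p = 0.0198). Chka missed the threshold when HTL replicate 2 was left out (adjusted p = 0.0708) or 3 (0.0798), without betaine plus HTL replicate 1 (0.0596) or 2 (0.0601), and with no filter on low values (0.0575). Over all settings its adjusted p ran from 0.00544 to 0.0798. Etnk1 stood at 12.9, 12.7 and 12.6 FPKM in betaine plus HTL libraries, against 13.9, 14.5 and 14.5 FPKM in HTL libraries. It fell by 10.8% in its mean with no overlap (log2 fold change -0.15 ± 0.04 SE, limma adjusted p = 0.0118).

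The transporter genes were not called. Slc44a1 averaged 9.77 ± 0.15 FPKM in betaine plus HTL cells and 9.65 ± 0.40 FPKM in HTL cells (95% interval of the log2 fold change -0.07 to 0.10, limma adjusted p = 0.765). For Slc44a2 the means were 27.8 ± 0.37 FPKM in betaine plus HTL cells and 26.5 ± 1.1 FPKM in HTL cells (interval -0.02 to 0.15, limma adjusted p = 0.211). Of the final enzymes, Cept1 averaged 2.90 ± 0.099 and 2.83 ± 0.033 FPKM in betaine plus HTL and HTL cells (interval -0.09 to 0.14). Chpt1 averaged 5.23 ± 0.20 FPKM with betaine plus HTL and 5.81 ± 0.43 FPKM with HTL, and missed the threshold (limma adjusted p = 0.0939), but passed when HTL replicate 1 was left out (0.0311; 0.0311 to 0.291 over all settings). The Cept1 to Chpt1 ratio was 0.554 ± 0.0036 in betaine plus HTL cells and 0.489 ± 0.040 in HTL cells, with no overlap (SD, n = 3 each; exact permutation p = 0.1). Pemt averaged 3.65 ± 0.31 FPKM in betaine plus HTL cells and 4.05 ± 0.24 FPKM in HTL cells, with overlap (interval -0.28 to 0.03, limma adjusted p = 0.203).

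Whether the change with betaine differed from the change with HTL for any gene was not tested, and both comparisons use the same HTL libraries. Side by side, the log2 fold changes of Pcyt1a were -0.40 for betaine plus HTL over HTL and 0.03 for HTL over control. Those of Pcyt2 were -0.36 and -0.27 in the same order.

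**Figure D3:**
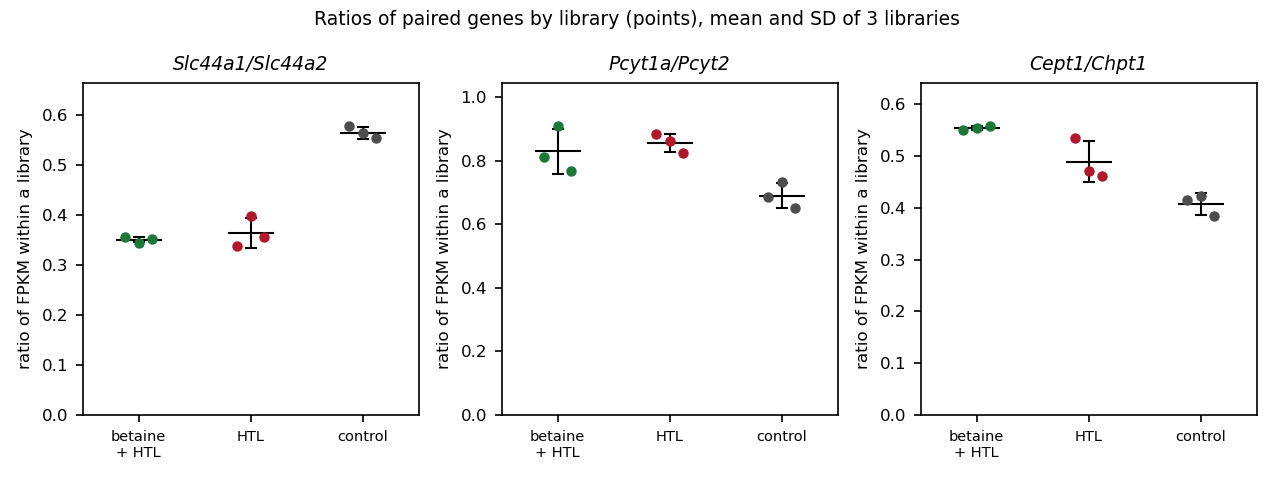
Ratio of FPKM within a library (vertical axes from 0) for 3 pairs of genes in betaine plus HTL, HTL and control libraries, with 1 point per library and the mean and SD of 3. The Slc44a1 to Slc44a2 ratio averages 0.352 with betaine plus HTL, 0.364 with HTL and 0.566 in control cells, and the Cept1 to Chpt1 ratio is highest in betaine plus HTL cells at 0.554.

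Betaine plus HTL against control sets the doubly treated cells against control cells, and shares its libraries with the comparisons above. Pcyt2 had the largest difference of the 9 genes and fell by 36.3% in its mean, at 23.3 ± 1.4 FPKM in betaine plus HTL cells and 36.5 ± 2.4 FPKM in control cells (log2 fold change -0.63 ± 0.05 SE, limma adjusted p = 1.57e-06). Pcyt1a fell as well (-0.37 ± 0.04 SE, limma adjusted p = 1.09e-05), and so did Slc44a1 (-0.24 ± 0.04 SE, 0.000191). Slc44a2 rose by 0.40 ± 0.04 on the log2 scale (SE, limma adjusted p = 4.22e-06), and Cept1 and Pemt rose by 0.22 and 0.24 (limma adjusted p = 0.00271 and 0.012). These 3 rises and 3 falls of 9 stand beside 37.7% and 25.7% over all genes (63.4% called). The groups were fully apart for 7 of the 9, against 67.1% of all genes. The median log2 fold change was -0.10 over the 9 and 0.04 over all genes.

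The Pemt call was lost without control replicate 2 (adjusted p = 0.0531) or betaine plus HTL replicate 3 (0.0514), with no filter (0.0521) and under quantile normalization (0.0584); it spanned 0.00375 to 0.0584 over all settings. Chka, Chpt1 and Etnk1 missed the threshold at adjusted p of 0.0853, 0.076 and 0.1 by limma. All 3 passed as falls under size factors (0.0118, 0.0152 and 0.00954) and under quantile normalization (0.00532, 0.00938 and 0.0173). They also passed without single libraries: Chka without HTL replicate 1 (0.0441), Chpt1 without control replicate 1 (0.0448) or HTL replicate 1 (0.0481), and Etnk1 without control replicate 1 (0.0166). Their ranges over all settings were 0.00532 to 0.211, 0.00938 to 0.217 and 0.00954 to 0.304. The share of calls over all genes that rose moved with scaling too, from 59.5% to 48.2% under size factors here, from 66.1% to 46.5% in HTL against control and from 41.4% to 55.3% in betaine plus HTL against HTL.

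Promoter sequences are shown for Pcyt1a, which fell with betaine pretreatment, and Slc44a2, which rose with HTL. Each is the 250 bases that end just before the gene's RefSeq start in GRCm38.p6, read 5′ to 3′ on the plus strand, with motif matches in capitals. RefSeq promoter windows were found for 9 of the 10 genes, some of them before a transcript start inside the annotated gene, and Pcyt2 is named only. The motifs searched on both strands were a sterol regulatory element (TCACNCCAC), the E-box CACGTG, the NF-Y box CCAAT, the GC box GGGCGG and the amino acid response element TGATGNAA.
Pcyt1a, chr16:32430671-32430920: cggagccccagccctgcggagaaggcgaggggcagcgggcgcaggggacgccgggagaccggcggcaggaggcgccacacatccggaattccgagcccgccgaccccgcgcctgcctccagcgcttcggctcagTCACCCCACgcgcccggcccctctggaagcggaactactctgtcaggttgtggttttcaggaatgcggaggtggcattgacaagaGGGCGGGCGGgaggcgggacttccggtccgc
Slc44a2, chr9:21320469-21320718: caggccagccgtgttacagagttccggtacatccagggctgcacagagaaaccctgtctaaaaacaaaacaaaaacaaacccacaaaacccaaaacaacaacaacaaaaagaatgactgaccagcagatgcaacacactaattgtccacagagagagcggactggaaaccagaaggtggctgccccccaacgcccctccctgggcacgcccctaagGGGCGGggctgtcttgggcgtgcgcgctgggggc

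The printed Pcyt1a window held a sterol regulatory element, TCACCCCAC, beginning 116 bases before the start (chromosome 16, 32430805 to 32430813). Of the other Pcyt1a windows, 32430770 to 32431019 held the same site, 215 bases before its own start. The window at 32430980 to 32431229 held no such element. Of all 32851 RefSeq windows of that length 1.05% held one, and no window of the other 8 genes with sequence did. Pcyt1a also had 2 overlapping GC boxes and Slc44a2 had 1, a motif that stood in 32.74% of all windows. Neither printed window held an NF-Y box, an E-box or a response element, against 33.85%, 6.02% and 3.45% of all windows. A match describes letters, not binding.

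The other genes of choline, betaine and phospholipid metabolism were read as a list of 74, of which 68 were in the table and 55 were tested. In HTL against control 21 rose and 14 fell, and in betaine plus HTL against HTL 6 rose and 9 fell. Their median log2 fold changes were 0.04 and -0.02, beside 0.07 and -0.02 over all genes. Called were 63.6% of the 55 in HTL against control and 27.3% in betaine plus HTL against HTL, beside 60.3% and 35.2% of all genes.

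Pcyt1b, the second choline cytidylyl transferase gene (chromosome X, 93654863 to 93749951, GRCm38), fell in both comparisons. It stood at 5.31, 6.17 and 5.61 FPKM in betaine plus HTL libraries, at 7.04, 6.96 and 7.18 FPKM in HTL libraries and at 9.13, 9.72 and 8.96 FPKM in control libraries. The 3 groups did not overlap, with log2 fold changes of -0.27 ± 0.05 for betaine plus HTL over HTL (SE, limma adjusted p = 0.00199) and -0.35 ± 0.05 for HTL over control (0.000131). Selenoi, whose product makes phosphatidylethanolamine from CDP-ethanolamine, averaged 14.1 ± 0.20 FPKM in betaine plus HTL cells, 13.3 ± 0.072 FPKM in HTL cells and 14.6 ± 0.16 FPKM in control cells (SD, n = 3 each). It fell in HTL cells against control (log2 fold change -0.12, limma adjusted p = 0.00472) and was not called with betaine against HTL (0.0595), where it passed as a rise under size factors (0.0188), quantile normalization (0.0195) and no filter (0.0214), with 0.0188 to 0.141 over all settings.

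Of the genes that make betaine from choline or use it, 2 of 6 listed were tested. Chdh, choline dehydrogenase, and Bhmt, which passes a methyl group of betaine to homocysteine, were listed at 0 in 8 of 9 libraries each. Aldh7a1, an aldehyde dehydrogenase that can oxidise betaine aldehyde, averaged 30.8 ± 0.16 FPKM in HTL cells and 35.7 ± 0.30 FPKM in control cells (SD, n = 3 each) and fell (log2 fold change -0.21 ± 0.02 SE, limma adjusted p = 2.57e-05). With betaine plus HTL it stood at 30.7 ± 0.23 FPKM. Sardh, sarcosine dehydrogenase, stood at 18.1 ± 0.80 FPKM in betaine plus HTL cells and 21.5 ± 0.59 FPKM in HTL cells. It fell with betaine (limma adjusted p = 0.000483). It also fell in HTL cells against control cells, which had 23.8 ± 0.021 FPKM (limma adjusted p = 0.00461).

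Among genes that break phosphatidylcholine down, 4 of 13 rose and 4 fell in HTL cells against control, and 4 rose and none fell with betaine plus HTL against HTL. These are 61.5% and 30.8% of the 13, near the 60.3% and 35.2% of all genes called. Enpp2 encodes autotaxin, which releases choline from lysophosphatidylcholine. It stood at 2.45, 2.76 and 2.25 FPKM in betaine plus HTL libraries, 0.831, 1.08 and 0.857 FPKM in HTL libraries and 0.469, 0.455 and 0.501 FPKM in control libraries. The groups were apart at each step. On log2(FPKM + 1) the log2 fold change was 0.86 ± 0.07 for betaine plus HTL over HTL (SE, limma adjusted p = 6.59e-06). For HTL over control it was 0.38 ± 0.07 (SE, limma adjusted p = 0.000722). At such low levels this scale understates the change: the ratios of the means were 2.69 and 1.94 in that order. Pla2g4a, cytosolic phospholipase A2, stood at 42.4 ± 2.9 FPKM in betaine plus HTL cells and 31.0 ± 0.19 FPKM in HTL cells, and rose (limma adjusted p = 2.11e-05), whereas it fell in HTL cells against control, which had 36.0 ± 0.49 FPKM (0.00119). The glycerophosphodiesterase gene Gdpd1 rose with betaine (log2 fold change 0.26, limma adjusted p = 0.00151). Phospho1, a phosphatase known to act on phosphocholine, fell in HTL cells (-0.26, limma adjusted p = 0.000569) and rose with betaine (0.17, 0.0147, and 0.0581 with no filter). In HTL cells Pnpla6, which deacylates phosphatidylcholine, and the lysosomal phospholipase gene Pla2g15 rose by 0.31 and 0.47 (limma adjusted p = 4.21e-05 and 1.6e-05). Gpcpd1, which yields choline from glycerophosphocholine, rose by 0.20 (limma adjusted p = 0.00772), a call lost under size factors (0.0632) and quantile normalization (0.0851), with 0.0007 to 0.0851 over all settings.

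**Figure D4:**
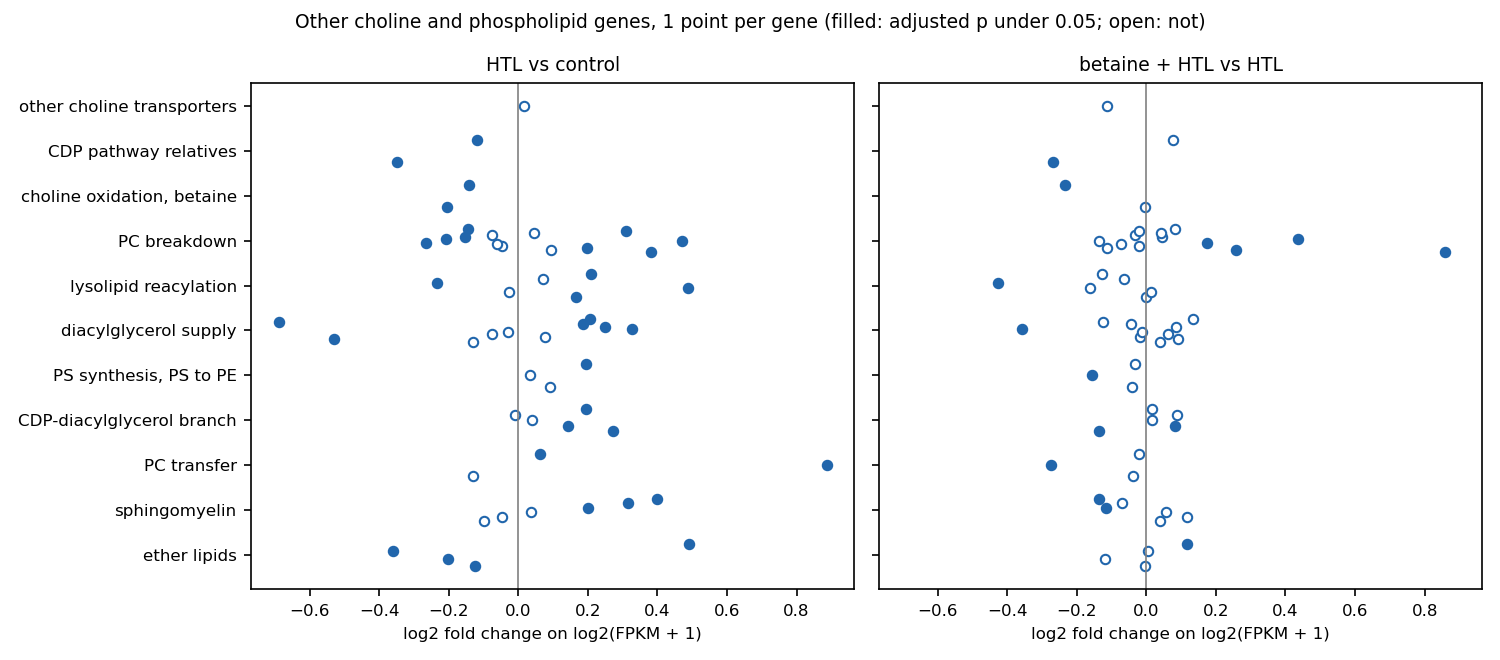
Log2 fold change on log2(FPKM + 1) (horizontal axis) of 55 other genes by role, HTL against control on the left and betaine plus HTL against HTL on the right; PC, PS and PE stand for phosphatidylcholine, -serine and -ethanolamine, filled points passed an adjusted p of 0.05, and height within a row has no meaning. Stard10 at 0.89 and Lpin1 at -0.69 mark the ends on the left, and Enpp2 at 0.86 and Lpcat3 at -0.43 on the right. This scale understates low genes: the ratio of means was 0.391 for Lpin1 on the left and 2.69 for Enpp2 on the right.

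Genes that supply diacylglycerol, the acceptor of the last step, were mixed. Of 10 tested, 4 rose and 2 fell in HTL cells against control (60% called, beside 60.3% of all genes), and 1 fell with betaine plus HTL against HTL (10% called, beside 35.2%). Lpin1, a phosphatidate phosphatase gene, stood at 0.649 ± 0.043 FPKM in HTL cells, against 1.66 ± 0.13 FPKM in control cells. It fell by 60.9% in its mean (log2 fold change on log2(FPKM + 1) -0.69 ± 0.06 SE, limma adjusted p = 2.85e-06). Its relative Lpin2, at a higher level, averaged 4.92 ± 0.24 FPKM in HTL cells and 4.13 ± 0.19 FPKM in control cells. Lpin2 rose (log2 fold change 0.21, limma adjusted p = 0.00352), and Lpin3 was below the filter. The acyltransferase gene Agpat2 fell by 0.53 (limma adjusted p = 1.35e-05). Gpam, which starts glycerolipid synthesis, rose to 25.6 ± 0.56 FPKM in HTL cells, against 20.2 ± 0.12 FPKM in control cells (limma adjusted p = 3.26e-06). With betaine plus HTL it stood at 19.7 ± 0.38 FPKM, which is a fall against HTL (log2 fold change -0.36 ± 0.03 SE, limma adjusted p = 5.74e-06). Of the enzymes that reacylate lysophosphatidylcholine, Lpcat3 fell in both comparisons, with 21.4 ± 1.3 FPKM in betaine plus HTL cells, 29.1 ± 0.44 FPKM in HTL cells and 34.4 ± 1.8 FPKM in control cells (limma adjusted p = 5.05e-05 against HTL, and 0.00111 for HTL against control). Lpcat2 rose in HTL cells by 0.49 (0.000203).

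The route to phosphatidylethanolamine through phosphatidylserine had 3 tested genes, of which 1 rose in HTL cells against control and 1 fell with betaine against HTL (33.3% called in each, beside 60.3% and 35.2% of all genes). Ptdss1 makes phosphatidylserine from phosphatidylcholine and stood at 23.3 ± 0.31 FPKM in betaine plus HTL cells and 26.1 ± 0.18 FPKM in HTL cells, a fall (limma adjusted p = 0.00237). Ptdss2 rose in HTL cells against control by 0.19 (limma adjusted p = 0.000933). Pisd, the mitochondrial decarboxylase gene, missed the threshold in HTL cells against control (limma adjusted p = 0.0854), and passed without betaine plus HTL replicate 3 (0.0357) or with only these groups in the fit (0.0362), with 0.0357 to 0.875 over all settings. Cds2, which makes CDP-diacylglycerol, rose in HTL cells by 0.14 (limma adjusted p = 0.00141, and 0.0956 under size factors) and with betaine by 0.08 (0.0446). That second call was lost without any 1 of the libraries but replicate 1 of betaine plus HTL, at 0.00953 to 0.133 over all settings.

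Stard10, a phosphatidylcholine transfer protein gene, had the largest rise of the list in HTL cells, with 13.2, 12.5 and 12.8 FPKM against 6.88, 6.44 and 6.14 FPKM in control libraries (log2 fold change 0.89 ± 0.05 SE, limma adjusted p = 5.55e-08). With betaine plus HTL it stood at 10.3, 10.1 and 10.9 FPKM, between the other groups and lower than with HTL (-0.27 ± 0.05 SE, limma adjusted p = 0.000919). Of 6 tested sphingomyelin genes, 50% were called in HTL against control and 33.3% with betaine against HTL, beside 60.3% and 35.2% of all genes. The sphingomyelinase gene Smpd4 rose in HTL cells by 0.40 (limma adjusted p = 4.39e-06). Smpd2 and Smpd1 rose as well, by 0.32 and 0.20 (limma adjusted p = 0.000193 and 0.00148). With betaine Smpd4 fell by 0.14 (limma adjusted p = 0.0137, and 0.059 without HTL replicate 2). Smpd1 fell by 0.12 (limma adjusted p = 0.0466, with 0.0293 to 0.157 over all settings), and Smpd2 was not called. In ether lipid synthesis, 3 of 4 tested genes fell and 1 rose in HTL cells against control (100% called, beside 60.3% of all genes). Gnpat, the first enzyme, fell by 0.36 (limma adjusted p = 9.71e-06), while the plasmalogen desaturase gene Peds1 rose by 0.49 (1.41e-06). The call of Peds1 with betaine (0.12, limma adjusted p = 0.0377) was lost in 8 settings, among them those that left out replicate 1 or 3 of HTL or replicate 2 or 3 of betaine plus HTL, at 0.00603 to 0.135 over all.

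Over the 9 libraries, the genes most like Pcyt2 in log2(FPKM + 1) were Efemp2 (Pearson r = 0.992), Pgp (0.987) and Mpv17 (0.987). Closest to Slc44a2 were Slc49a4 (0.991), Mtmr3 (0.99) and Rbck1 (0.987). For Pcyt1a they were Get3 (0.983), BC029722 (0.983) and Zmat2 (0.98). The points of each correlation share the 3 groups and the library totals, so r describes the same order of groups and no more.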

How the data were processed

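RNA was sequenced from 9 libraries of HT-22 cells, with groups and replicate numbers from the sample titles. The authors deposited 1 table of FPKM values per gene and library, per the file headers. Fastp, HISAT2, HTSeq and R 3.2.0 with build mm10 are named in the submitters' processing notes, without role or order, and the library kit was VAHTS Universal V10 per the labels' protocols. The sources used here give no counting options, annotation or strand use.

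Whole fragments per gene, gene lengths and scaling totals were inferred from the steps between low FPKM values (lengths came out whole for 300 of 300 genes, within 0.05 bases). Genes averaging 0.5 FPKM or more were fitted by limma 3.58.1 (R 4.3.3) on log2(FPKM + 1): group means, an intensity trend, all 9 libraries (6 residual degrees of freedom), two-sided tests, Benjamini-Hochberg adjustment over 11012 genes in each of 3 comparisons, threshold 0.05. A fold change on this scale understates low genes. The fit was also run on simulated counts, with the same length for every gene and no scaling shift between groups. That run does not bear on the effect of scaling seen here. No label says whether the replicates were separate cultures; the p-values therefore reflect the spread among these 9 libraries alone, and that spread may be technical.

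The genes, the list of 74 others and the tests were chosen with earlier results of these data known. Of the 74 the text names 11 fixed ones and, in each of the first 2 comparisons, the 6 largest rises and 6 largest falls among called genes with at least 1 FPKM. Lpin2, Lpin3, Smpd1 and Smpd2 are named besides, as relatives of named genes. Similar genes were the 3 with the highest r among genes of at least 5 FPKM, for the 3 genes with the widest range of group means. The Chka to Chkb ratio was planned and not computed, since Chkb was below the filter. Alternatives were other pseudocounts, filters, scalings, variance models and fits, a replicate block, and each library left out.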

Additional observations from a re-analysis of the deposited data

How the results depend on the processing

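Depth limits Pemt most, with 118 to 214 fragments per library. Under size factors 3398 genes fell in HTL against control, against 2251 as reported. In betaine plus HTL against control 6 of the 9 genes fell under quantile normalization and 6 under size factors, against 3, and of the other lipid genes 18 and 20 fell under these settings, against 11. Why the counts moved with scaling was not tested. In betaine plus HTL against control, the Cept1 to Chpt1 ratio differed by 0.44 in log2. With a pseudocount of 1 in the ratio that difference was 0.34. For Slc44a1 to Slc44a2 the difference was -0.69, and -0.65 with the pseudocount. A filter at a mean of 5 FPKM leaves out Cept1 and Pemt, and of the 7 genes then tested 1 rose in HTL against control and 1 in betaine plus HTL against control.

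Log2 fold changes turned only for values that were not called. In HTL against control, quantile normalization and size factors gave -0.025 and -0.012 for Chka, -0.075 and -0.068 for Chpt1, -0.0079 and -0.055 for Pcyt1a and -0.00497 and -0.0498 for Ptdss1, and size factors -0.0082 for Etnk1. In betaine plus HTL against HTL they gave 0.0046 and 0.025 for Aldh7a1, and size factors 0.00696 for Pnpla6. In betaine plus HTL against control size factors gave -0.00239 for Pisd.

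Leaving out single libraries, the log2 fold change in HTL against control ran from -0.032 to 0.058 for Chpt1 and from -0.012 to 0.059 for Pcyt1a, and in betaine plus HTL against HTL from -0.031 to 0.051 for Gnpat and from -0.0084 to 0.046 for Slc44a1. Of the 9 genes, 3 to 4 rose and 2 fell in HTL against control, none rose and 3 to 5 fell in betaine plus HTL against HTL, and 2 to 3 rose and 3 to 5 fell in betaine plus HTL against control.

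Same-numbered libraries correlated at -0.073 to 0.059 in their deviations from group means, and differently numbered ones at -0.094 to 0.153. Whether same-numbered libraries were handled together cannot be told from these values. With a replicate block, Chka passed in betaine plus HTL against control (limma adjusted p = 0.0442), Pla2g15 passed as a fall in betaine plus HTL against HTL (0.0432), and the calls of Cds2 (0.0577) and Peds1 (0.0607) there were lost. Over all genes 4309 rose and 2223 fell in HTL against control, 1494 and 2196 in betaine plus HTL against HTL, and 4118 and 2802 in betaine plus HTL against control. Of the single-gene values under all alternatives, 1780 kept direction and side of the threshold, 34 lost the call, 29 gained one and 20 turned. Many alternatives leave the fold change itself as it was, so direction could not turn under them. These are the filters, the variance model, the fit of only the groups compared, the block and leaving out a library outside the comparison.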
